A study of Mus musculus with 6 samples.

Results

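Elastic fibre and crosslinking genes were described in 2 mouse endothelial cell lines, bEnd.3 and UV2. The group was made up of the rows of the count table whose symbol was Eln, Fbn1, Fbln2, Fbln5, Efemp1, Efemp2, Lox, Loxl2, Ltbp2 or Ltbp3, and all 10 were found among 24411 genes. Bulk RNA-seq had been done on 3 libraries of each line. bEnd.3 comes from BALB/c brain endothelium and was immortalised by the middle T antigen of polyomavirus. UV2, also written UV♀2 in the labels, is of the strain (BALB/c x C57BL/6)F1. Neither group carried a treatment that the other lacked. Confluent cells of both had spent 3 days without serum on 10-cm dishes before they were detached with trypsin. Each group is a single cell line, so a difference between the groups cannot be told apart from strain, origin or immortalisation of that line. The labels do not say whether separate cultures lie behind the 3 libraries of a line. The p-values therefore reflect only the spread among these libraries, which could be technical.

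An elastic fibre has a core of crosslinked elastin on a scaffold of fibrillin microfibrils. Fibulins and latent TGF-beta binding proteins (LTBPs) sit on the microfibrils, guide elastin to them, or hold TGF-beta in a latent form. Lysyl oxidases are copper enzymes that oxidise lysines of elastin and collagen so that the chains crosslink. In an artery most of the elastin comes from smooth muscle cells, and endothelial cells take part in building the inner elastic layer.

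Levels are given as CPM, with each library's total adjusted by TMM, as mean ± SD over n = 3 libraries. Differences on the log2 scale are log2 fold changes, UV2 minus bEnd.3, with their standard error (SE). The quasi-likelihood test of edgeR gave the p-values, with Benjamini-Hochberg adjustment over every gene tested and calls under 0.05. A second test on the same fit, glmTreat, asked for a change beyond 2-fold. Total expected counts were 21306441 to 28748128 per library. Endothelial markers were well detected in both lines, but not all were alike. Summed over 8 of them, the level was 10134 to 10578 CPM in bEnd.3 and 10318 to 11825 CPM in UV2, and Pecam1 stood at 1951 ± 73.4 CPM and 2166 ± 52.1 CPM. Cdh5 stood at 3958 ± 273 CPM in bEnd.3 and 4039 ± 150 CPM in UV2, and neither of these 2 genes passed the test. Of the 8 markers, 3 were called lower in UV2, 1 higher and 4 did not pass. Among all tested genes 33.3% were called lower and 33.9% higher. Emcn (endomucin), with 780 ± 57.2 CPM in bEnd.3 and 281 ± 29.2 CPM in UV2, fell by 1.47 on the log2 scale. Flt1 (a VEGF receptor), with 148 ± 14.8 CPM and 43.7 ± 11.0 CPM, fell by 1.76, and both passed beyond 2-fold. Erg (-0.35) was lower and Tie1 (0.88) higher without passing beyond 2-fold.

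bEnd.3 carried elastin, fibrillin-1, fibulin-2 and abundant fibulin-5, and all 4 transcripts fell in UV2. UV2 carried Ltbp2, which was nearly absent from bEnd.3, and more Ltbp3. Loxl2 fell slightly, and Efemp1 and Lox were at or under the floor in both lines. Of the 10 genes, 7 passed the filter on low counts and were tested. Of those, 5 were called lower and 2 higher in UV2. Over all 12720 tested genes 67.1% were called, 33.3% lower and 33.9% higher, so a call by itself did not set these genes apart. Beyond 2-fold, 4 were lower and 2 higher, against 8.81% and 10.6% of all tested genes (19.4% in either direction). At none of the 7 did bEnd.3 and UV2 libraries overlap, as was the case at 73.2% of all tested genes. The median log2 fold change of the 7 was -3.69, beside -0.01 over all tested genes. Ltbp2 passed the filter through its UV2 libraries only, and Fbn1 reached the filter's level in 1 UV2 library only, so these counts and the median describe the genes and are no test of the group. In bulk RNA, fewer cells with a transcript and less of it per cell cannot be told apart.

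**Figure D1:**
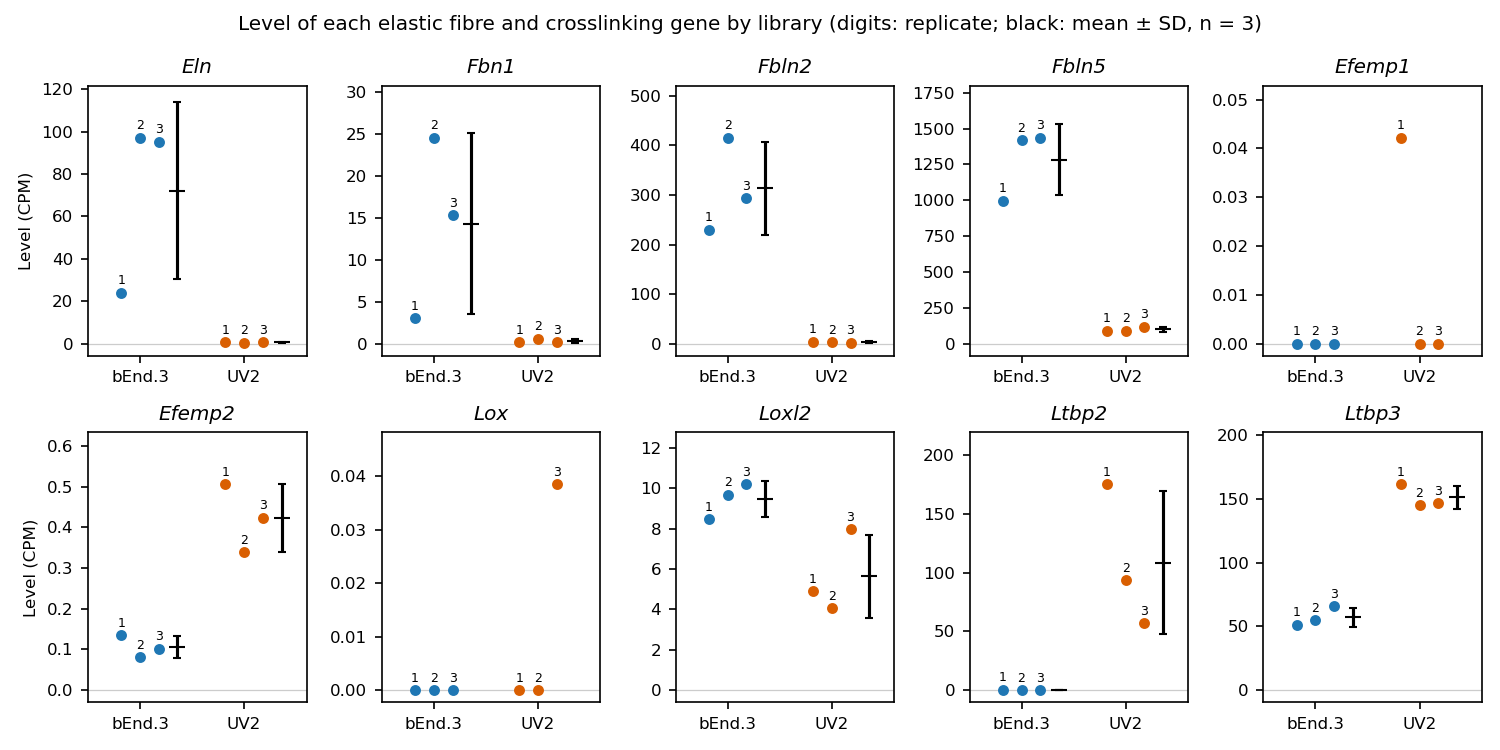
Level of each of the 10 genes in CPM (vertical axis, its own scale in each panel) in the 3 libraries of bEnd.3 (blue) and of UV2 (orange), numbered by replicate, with mean ± SD in black except for Efemp1 and Lox, which held 1 count each. Eln, Fbn1, Fbln2 and Fbln5 sit higher in every bEnd.3 library than in any UV2 library, and Ltbp2 and Ltbp3 the other way round.

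Eln encodes tropoelastin, the soluble precursor of the fibre core (chromosome 5, 134702595 to 134747368, mm10). Its level was 24.0, 97.2 and 95.3 CPM in bEnd.3 replicates 1, 2 and 3, and 0.507, 0.485 and 0.540 CPM in UV2 replicates 1, 2 and 3. The lines did not overlap, and bEnd.3 replicate 1 stood at 25.0% of the mean of the other two bEnd.3 libraries. From 72.2 ± 41.7 CPM to 0.510 ± 0.0277 CPM, the log2 fold change was -7.13 (SE 0.69, adjusted p = 6.16e-05), and the bEnd.3 mean was 141 times the UV2 mean. The UV2 value rested on 36 counts over the 3 libraries, against 5733 in bEnd.3. Without bEnd.3 replicate 1 the log2 fold change was -7.54. Beyond 2-fold the adjusted p by edgeR's glmTreat was 1.55e-04.

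Fbn1 encodes fibrillin-1, the main protein of the microfibril scaffold and the gene mutated in Marfan syndrome (chromosome 2, 125300594 to 125506485). It had 3.00, 24.6 and 15.3 CPM in the bEnd.3 libraries and 0.169, 0.582 and 0.193 CPM in those of UV2. As with Eln, bEnd.3 replicate 1 was the low library of its line, at 15.1% of the mean of the other two, yet it lay above every UV2 library. The log2 fold change was -5.55 (SE 0.90, adjusted p = 9.47e-04). It ranged from -6.26 without UV2 replicate 2 to -4.90 without bEnd.3 replicate 2. The UV2 libraries held 21 counts together.

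Fibulins are matrix glycoproteins built of calcium-binding EGF repeats. Fbln5 encodes fibulin-5, which binds elastin and, through integrins, the cell surface (chromosome 12, 101746565 to 101819119). Its level was 997, 1418 and 1438 CPM in bEnd.3 and 90.8, 90.3 and 117 CPM in UV2. Every bEnd.3 library was far above every UV2 library, and the spread within a line was small beside that gap. It fell from 1284 ± 249 CPM to 99.3 ± 15.2 CPM (-3.69 on the log2 scale, SE 0.18, edgeR adjusted p = 1.90e-06), and the bEnd.3 mean was 12.9 times the UV2 mean. With 7042 counts behind the UV2 value, Fbln5 remained well detected in the line where it was low.

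Fbln2 encodes fibulin-2, a larger fibulin found in vessel walls and basement membranes (chromosome 6, 91212460 to 91272540). It had 230, 416 and 294 CPM in bEnd.3 and 4.10, 3.25 and 1.62 CPM in UV2. No library of one line came near the other line. The fall was from 313 ± 94.7 CPM to 2.99 ± 1.26 CPM, a log2 fold change of -6.72 (SE 0.36, adjusted p = 2.94e-06), and the bEnd.3 mean was 105 times the UV2 mean.

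Efemp1 and Efemp2 encode fibulin-3 and fibulin-4, and fibulin-4 is required for elastic fibre assembly and helps lysyl oxidase reach elastin. Efemp1 (chromosome 11, 28853154 to 28926743) had 0 counts in bEnd.3 and 1 count in UV2, in replicate 1. At 3 counts over the 3 libraries of a line, the floor was 0.0393 CPM in bEnd.3 and 0.0427 CPM in UV2, and Efemp1 was at or under it in both. Such floors and the intervals below cover counting error only, since sequenced reads are not independent molecules. Efemp2 (chromosome 19, 5473946 to 5482520) had 3, 2 and 3 counts in bEnd.3 and 12, 7 and 11 counts in UV2. These were 0.106 ± 0.0268 CPM and 0.424 ± 0.0838 CPM, with every UV2 library above every bEnd.3 library. The ratio of UV2 to bEnd.3 from the summed counts was 4.08 (95% exact counting interval 1.83 to 10.3). Efemp2 did not pass the filter. With no filter on low counts its log2 fold change was 1.97 (SE 0.52, edgeR adjusted p = 0.00850). In GENCODE M21 its exons share 173 bases with those of Mus81 on the opposite strand, while the RefSeq positions leave 0.041 kb between the genes. Mus81 had 29.1 CPM in bEnd.3 against 15.3 CPM in UV2. The annotation and strand setting of the counting are not stated, so reads of that pair cannot be told apart where they overlap.

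LTBPs resemble fibrillins in their repeats. LTBP3 binds the small latent TGF-beta complex, while LTBP2 does not and is a microfibril protein. Ltbp2 (chromosome 12, 84783212 to 84876558) had 5, 1 and 5 counts in the bEnd.3 libraries, or 0.224, 0.0407 and 0.170 CPM. In UV2 replicates 1, 2 and 3 it had 176, 93.8 and 56.8 CPM. UV2 replicate 1 was 2.33 times the mean of the other two, and all 3 were far above bEnd.3. It rose from 0.145 ± 0.0943 CPM to 109 ± 60.8 CPM (9.51 on the log2 scale, SE 0.67, edgeR adjusted p = 1.22e-05), above 99.6% of tested genes in the order of log2 fold changes. The ratio of the summed counts was 747 (95% exact counting interval 417 to 1497). Without UV2 replicate 1 the log2 fold change was 8.99. In GENCODE M21 its exons share 764 bases with the antisense gene D030025P21Rik, which had 0 counts in bEnd.3 against 3.65 CPM in UV2. Here too reads from the shared bases cannot be told apart.

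Ltbp3 (chromosome 19, 5740900 to 5758536) had 51.3, 54.8 and 65.6 CPM in bEnd.3 and 162, 145 and 147 CPM in UV2. The libraries of each line lay close together and the lines did not overlap. Ltbp3 rose from 57.2 ± 7.47 CPM to 151 ± 9.16 CPM, a UV2 mean 2.64 times that of bEnd.3 (1.40 on the log2 scale, SE 0.10, edgeR adjusted p = 1.47e-05), and the change passed beyond 2-fold as well (adjusted p = 0.00341 by edgeR's glmTreat).

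Promoter sequence was read for the 7 members that the RefSeq promoter table of GRCm38.p6 held, which gave 10 start sites (2 for Fbln5, 3 for Efemp2 and 1 each for Fbn1, Fbln2, Efemp1, Ltbp2 and Ltbp3). The 250 bases before the start are shown for Fbln5 and Ltbp3, the well-detected members that moved in opposite directions and whose windows lay outside annotated exons. Both are written 5′ to 3′ on the strand of the gene, and capitals mark the GC box GGGCGG, to which the factor Sp1 can bind, or its complement CCGCCC. The Fbln5 stretch is chr12:101819120-101819369 (minus strand) and the Ltbp3 stretch is chr19:5740650-5740899 (plus strand). GENCODE M21 starts Fbln5 at 101819055, further into the gene than this RefSeq start. The bases just after the RefSeq start were in no GENCODE transcript of Fbln5.
Fbln5: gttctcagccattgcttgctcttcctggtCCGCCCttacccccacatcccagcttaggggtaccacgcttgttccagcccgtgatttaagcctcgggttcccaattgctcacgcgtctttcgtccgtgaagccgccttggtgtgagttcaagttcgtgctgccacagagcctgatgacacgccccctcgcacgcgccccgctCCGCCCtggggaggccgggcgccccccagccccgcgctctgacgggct
Ltbp3: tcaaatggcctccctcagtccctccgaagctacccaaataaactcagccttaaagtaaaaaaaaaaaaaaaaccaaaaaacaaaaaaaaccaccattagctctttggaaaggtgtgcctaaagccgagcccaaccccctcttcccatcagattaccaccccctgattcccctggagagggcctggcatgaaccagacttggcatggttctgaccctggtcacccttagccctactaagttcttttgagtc
The Fbln5 window held 2 such boxes and the Ltbp3 window none. Among windows of the same length, 32.7% of all 32851 promoters in the table held at least 1 on either strand. Of the members whose upstream bases are not shown, Fbn1, Fbln2 and Efemp1 held 1 box each and Ltbp2 held 2. The 3 starts of Efemp2 held 2, 5 and 5, and the inner start of Fbln5 held none. The letters TATAAA, on either strand, were in none of the 10 windows, and in 12.4% of all promoters. The AP-1 motif TGANTCA, on either strand, was in the Efemp1 window only, and in 6.75% of all promoters. CAGACA, a run that SMAD factors can bind, on either strand, was at the inner start of Fbln5 only, and in 17.1% of all promoters. These 4 motifs and the 2 windows shown were chosen after the values were seen. Falling and rising genes thus both included windows with the GC box. The windows of Fbn1, Fbln2 and Ltbp2, and of the inner starts of Fbln5 and Efemp2, began within annotated exons or gene bodies. A match is a run of letters and not a bound site, and no match says only that these letters are not in the window.

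Lox encodes lysyl oxidase, the family's founding member, on chromosome 18. It held 0 counts in bEnd.3 and 1 count in UV2, in replicate 3, and so was at or under the floor in both lines. Loxl2, a lysyl oxidase-like enzyme known for crosslinking collagen IV of basement membranes (chromosome 14, 69608692 to 69695834), had 8.48, 9.69 and 10.2 CPM in bEnd.3. In UV2 it had 4.90, 4.07 and 7.98 CPM. The lines did not overlap, but UV2 replicate 3 lay close to the lowest bEnd.3 library. The fall was from 9.46 ± 0.893 CPM to 5.65 ± 2.06 CPM (-0.74 on the log2 scale, SE 0.24, edgeR adjusted p = 0.0264), and it did not pass beyond 2-fold. The call was lost without bEnd.3 replicate 2 (edgeR adjusted p = 0.0674), without bEnd.3 replicate 3 (0.0730), without UV2 replicate 1 (0.0897) and without UV2 replicate 2 (0.0781), with log2 fold changes of -0.55 to -0.71 in these 4 fits.

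**Figure D2:**
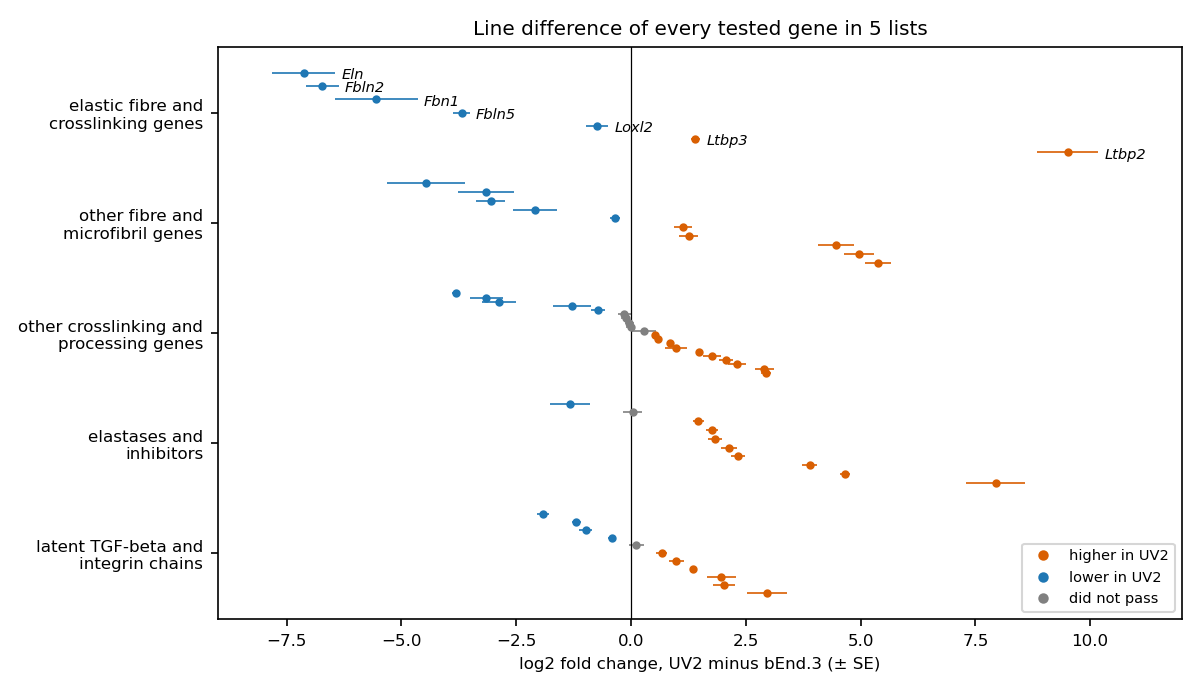
Log2 fold change of every tested gene in 5 gene lists (horizontal axis, UV2 minus bEnd.3, bars ± SE), with orange for genes called higher in UV2, blue for genes called lower and grey for genes that did not pass. The named genes of the top row span from Eln at -7.13 to Ltbp2 at 9.51, and the row of elastases and inhibitors has 8 genes called higher and 1 called lower.

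The line change also turned the make-up of the group. The summed level of the 10 genes was 1314, 2020 and 1918 CPM in bEnd.3 and 438, 338 and 331 CPM in UV2. In bEnd.3, Fbln5 took 70.2% to 75.9% of that sum and Fbln2 took 15.3% to 20.6%. In UV2, Ltbp3 took 36.9% to 44.3%, Ltbp2 17.2% to 40.1% and Fbln5 20.7% to 35.3%. Eln took 1.83% to 4.97% in bEnd.3 and 0.116% to 0.163% in UV2.

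**Figure D3:**
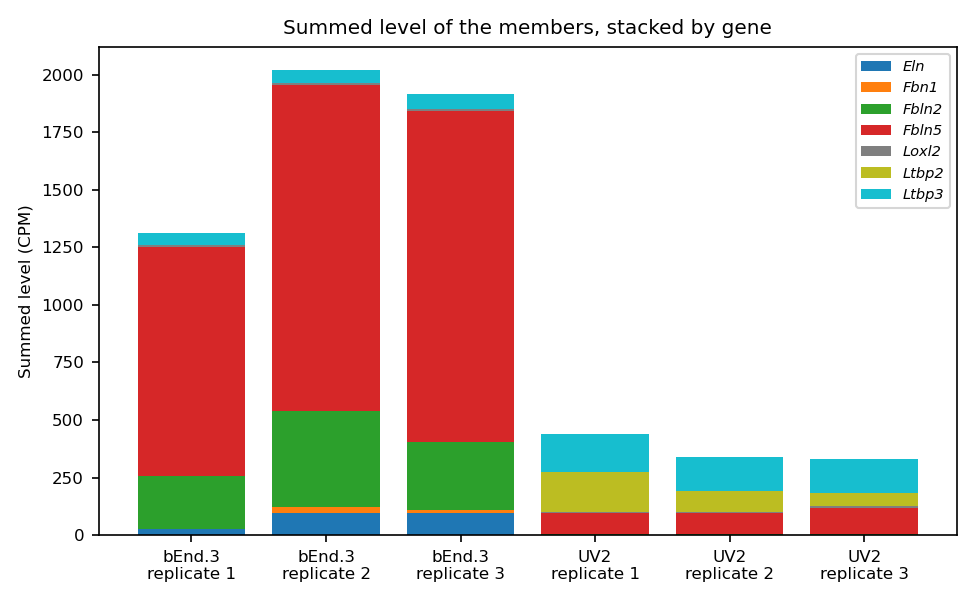
Summed CPM (vertical axis) in each of the 6 libraries, stacked by gene, with Efemp1, Efemp2 and Lox left out because their levels cannot be seen on this scale. bEnd.3 libraries are mostly Fbln5 and Fbln2 and reach 1314 to 2020 CPM, and UV2 libraries are mostly Ltbp3, Ltbp2 and Fbln5 and reach 331 to 438 CPM.

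Levels of different genes were compared as CPM per kilobase of exonic length in GENCODE M21. In bEnd.3 the order of these per-length levels was Fbln5 (186), Fbln2 (49.2), Eln (8.92), Ltbp3 (6.31), Loxl2 (1.75), Fbn1 (1.18), Efemp2 (0.0280) and Ltbp2 (0.0177). Libraries overlapped between Eln and Ltbp3, between Loxl2 and Fbn1, and between Efemp2 and Ltbp2, so the order within those pairs is not resolved. In UV2 the per-length order was Ltbp3 (16.7), Fbln5 (14.4), Ltbp2 (13.3), Loxl2 (1.05), Fbln2 (0.469), Efemp2 (0.112), Eln (0.0630) and Fbn1 (0.0259). The first 3 overlapped among libraries and the others did not overlap with their neighbours. Eln thus stood above Loxl2 in bEnd.3 and below it in UV2.

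Among the bEnd.3 libraries the genes of the fibre core and scaffold varied more than the other tested members, leaving out Ltbp2 with its 11 counts. The coefficient of variation (SD as a percent of the mean) was 57.8% for Eln and 75.7% for Fbn1, against 30.2% for Fbln2, 19.4% for Fbln5, 13.1% for Ltbp3 and 9.44% for Loxl2. bEnd.3 replicate 1 was the lowest bEnd.3 library at each of these 6 genes. It was the lowest at 39.3% of the 9030 genes with at least 10 CPM in bEnd.3, and its depth of 21944529 counts was the lowest of the line. In UV2 the coefficient of variation was 73.7% for Fbn1, 55.9% for Ltbp2, 42.2% for Fbln2 and 36.4% for Loxl2, and 5.42% to 15.3% for Eln, Fbln5 and Ltbp3. The UV2 values of Eln and Fbn1 rest on 36 and 21 counts, so counting error limits both. The low figure for Eln does not show a steady gene. Without bEnd.3 replicate 1 the calls were again 5 lower and 2 higher, and without UV2 replicate 1 they were 4 lower and 2 higher.

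**Figure D4:**
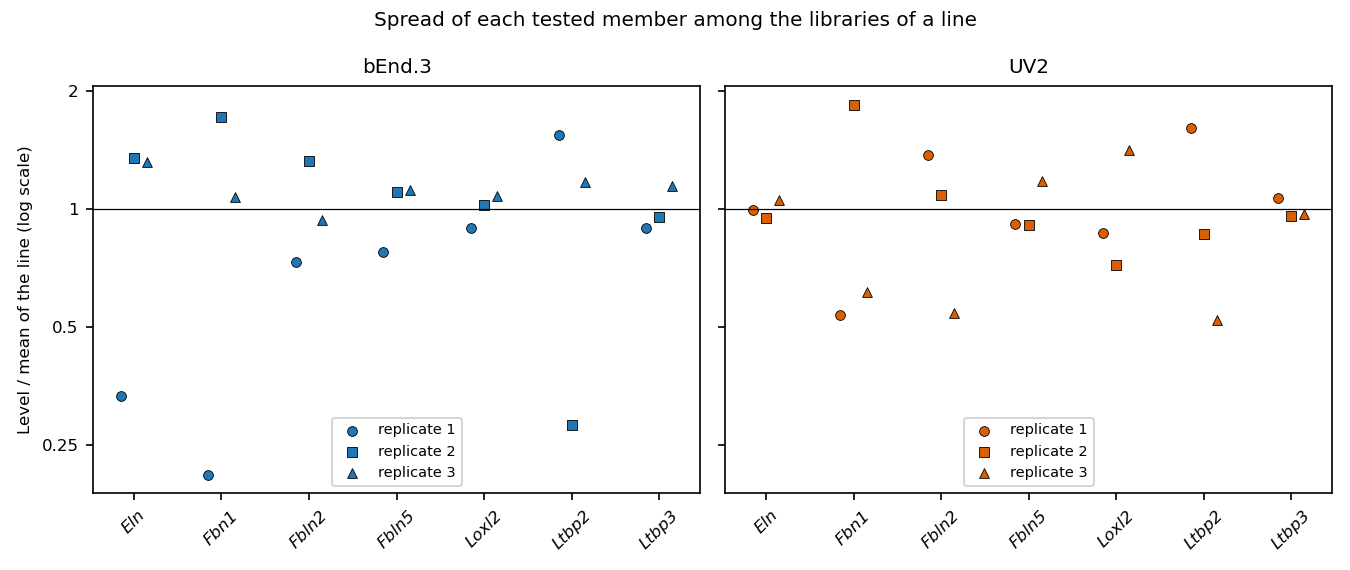
Level in each library divided by the mean of its line (vertical axis, log scale) for the 7 tested genes, with a marker for each replicate, bEnd.3 on the left and UV2 on the right. bEnd.3 replicate 1 lies far below the other libraries at Eln and Fbn1, and UV2 replicate 1 lies above the others at Ltbp2.

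Fibroblasts and smooth muscle cells make many of these proteins, so their markers were read as well. Of 8 fibroblast markers 3 were tested, Pdgfra, Pdgfrb and Col3a1, and all 3 were higher in UV2. Among all tested genes 33.9% were called higher. Pdgfrb passed the filter through its UV2 libraries only, so this count describes the markers and is no test of them. Col3a1 rose by 5.13 on the log2 scale, from 4.63 without bEnd.3 replicate 3 to 5.73 without bEnd.3 replicate 1. Summed over the 8 markers, the level was 3.26 to 3.83 CPM in bEnd.3. It was 72.6, 40.4 and 30.1 CPM in UV2 replicates 1, 2 and 3, most of it Col3a1 (50.8, 26.2 and 19.2 CPM). Ltbp2 shared this order, but so did other genes, among them Fbln2 (4.10, 3.25 and 1.62 CPM), which was lower in UV2. Pdgfra, a growth factor receptor of fibroblasts, rose from 2.07 ± 0.608 CPM to 11.0 ± 4.52 CPM (2.39 on the log2 scale, SE 0.34, edgeR adjusted p = 4.53e-04). The defining collagen gene Col1a1 held 16 counts in bEnd.3 and 9 in UV2, Dcn held 1 and 1, and Col1a2 held 0 and 6. The part of such markers in the Ltbp2 result was not tested. Of 8 smooth muscle and pericyte markers only Tagln was tested. It was lower in UV2 (log2 fold change -0.74, edgeR adjusted p = 0.0411), but not with the replicate number as a block (adjusted p = 0.0639), in DESeq2 (0.0797) or without any one of 4 libraries, bEnd.3 replicates 2 and 3 and UV2 replicates 1 and 3 (edgeR adjusted p = 0.0599 to 0.146). The summed level was 2.04 to 3.40 CPM in bEnd.3 and 1.77 to 2.28 CPM in UV2. Acta2 held 0 counts in bEnd.3 and 39 in UV2, Myh11 held 16 and 4, and Cnn1 and Des held 0 in every library. Of 8 macrophage and leukocyte markers 3 were tested and 2, Cd68 and Lyz2, were higher in UV2, beside the same 33.9% of all tested genes. The summed levels of the 8 were 91.4 to 160 CPM in bEnd.3 and 609 to 631 CPM in UV2. Ptprc, which marks all leukocytes, held 1 count in bEnd.3 and 0 in UV2. No epithelial marker of 8 was tested, their sum was 0.0340 to 0.163 CPM and 0.380 to 0.964 CPM, and Epcam held 0 counts in every library.

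Other components of elastic fibres and microfibrils went both ways. Of 20 such genes 10 were tested, and 5 were higher and 5 lower in UV2, with a median log2 fold change of 0.39 beside -0.01 over all tested genes. All 10 were thus called, where 67.1% of all tested genes were, 33.9% higher and 33.3% lower. Tnxb and Vcan passed the filter through their UV2 libraries only, and Emilin1 and Thsd4 through their bEnd.3 libraries only. These counts and the median therefore describe the genes and are no test of the list. Tnxb, which encodes the matrix glycoprotein tenascin-X, rose from 0.155 ± 0.0647 CPM to 6.76 ± 0.809 CPM (5.38 on the log2 scale, SE 0.28, edgeR adjusted p = 2.54e-06). The emilins are glycoproteins at the border of elastin and microfibrils, and they split. Emilin2 rose from 0.610 ± 0.225 CPM to 18.8 ± 5.58 CPM (4.97 on the log2 scale, SE 0.32, edgeR adjusted p = 7.60e-06), and Emilin1 fell from 6.06 ± 4.54 CPM to 0.273 ± 0.0359 CPM (-4.47 on the log2 scale, SE 0.85, edgeR adjusted p = 0.00210). Emilin1 had 1.08, 9.97 and 7.13 CPM in the bEnd.3 libraries, so replicate 1 was the low library here too. Bgn, the proteoglycan biglycan, fell from 13.6 ± 3.46 CPM to 1.502 ± 1.63 CPM (-3.16 on the log2 scale, SE 0.61, edgeR adjusted p = 0.00226). Its log2 fold change ranged from -4.46 without UV2 replicate 1 to -2.69 without UV2 replicate 2.

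The relatives of the LTBPs, fibrillins and fibulins were looked at after their values were seen. Ltbp1, which also binds latent TGF-beta, fell from 80.0 ± 30.4 CPM to 9.63 ± 2.21 CPM (-3.06 on the log2 scale, SE 0.32, edgeR adjusted p = 1.01e-04), and Ltbp4 fell from 18.8 ± 1.65 CPM to 14.7 ± 1.33 CPM (-0.35 on the log2 scale, SE 0.11, edgeR adjusted p = 0.0242). The Ltbp4 call was lost without bEnd.3 replicate 3 (edgeR adjusted p = 0.0731), without UV2 replicate 1 (0.0734) and without UV2 replicate 2 (0.0858). Of the 4 LTBP genes, then, Ltbp2 and Ltbp3 were higher and Ltbp1 and Ltbp4 lower in UV2. Fbn2, the second fibrillin, held 0 counts in bEnd.3 and 3 in UV2. Fbln1 held 7 and 23 counts, and Fbln7 held none. The microfibril-associated glycoprotein genes Mfap2 and Mfap5 held 11 and 4 counts in bEnd.3 and 2 each in UV2, and Mfap4 held 0 in every library.

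Genes of matrix crosslinking and processing, not all of them for enzymes, went both ways. Of 23 such genes 20 were tested, and 10 were higher, 5 were lower and 5 did not pass, with a median log2 fold change of 0.41. The 15 of 20 called lie near the 67.1% of all tested genes (33.9% higher, 33.3% lower). Pcolce reached the filter's level in UV2 only at replicate 2, so the counts and the median describe the genes and are no test of the list. Tgm2, a transglutaminase that crosslinks matrix proteins without lysyl oxidase, rose from 48.6 ± 3.27 CPM to 374 ± 45.9 CPM (2.94 on the log2 scale, SE 0.11, edgeR adjusted p = 4.95e-07). Plod1, a lysyl hydroxylase of collagen, rose from 50.9 ± 10.6 CPM to 381 ± 91.5 CPM (2.90 on the log2 scale, SE 0.21, edgeR adjusted p = 1.29e-05). Fkbp10, a collagen chaperone that assists telopeptide lysine hydroxylation, fell from 113 ± 4.63 CPM to 8.10 ± 0.711 CPM (-3.81 on the log2 scale, SE 0.09, edgeR adjusted p = 7.88e-08). Pcolce2, an enhancer of procollagen cleavage, fell from 5.44 ± 1.81 CPM to 0.596 ± 0.227 CPM (-3.15 on the log2 scale, SE 0.35, edgeR adjusted p = 1.35e-04). The rest of the lysyl oxidase family was read after its values were seen. Loxl4 rose from 57.1 ± 17.5 CPM to 194 ± 9.20 CPM (1.76 on the log2 scale, SE 0.19, edgeR adjusted p = 1.15e-04), Loxl3 had 2.09 ± 0.507 CPM and 2.55 ± 0.561 CPM and did not pass (adjusted p = 0.361), and Loxl1 held 0 counts in every library. The 5 lysyl oxidase genes thus included 1 higher (Loxl4), 1 lower (Loxl2) and 2 at or under the floor (Lox and Loxl1). Atp7a, which loads copper onto secreted enzymes such as lysyl oxidases, was among the 10 higher genes.

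Proteases that can cut elastin were read with their inhibitors. Of 16 such genes 10 were tested, and 8 were higher, 1 was lower and 1, Timp3, did not pass, with a median log2 fold change of 1.98, where 33.9% of all tested genes were called higher and 33.3% lower. Mmp9 passed the filter through its UV2 libraries only, and Ctsk reached the filter's level in UV2 only at replicate 3. The count and the median therefore describe these genes and are no test of the list. Mmp2, gelatinase A, rose from 4.38 ± 0.512 CPM to 111 ± 7.12 CPM (4.67 on the log2 scale, SE 0.11, edgeR adjusted p = 7.56e-08). Mmp9, gelatinase B, held 2 counts in the bEnd.3 libraries together and had 7.70 ± 3.18 CPM in UV2, a ratio of 288 (95% exact counting interval 79.3 to 2384). The 8 higher genes also held the inhibitors Timp1, Timp2 and Cst3 beside the proteases Mmp14, Ctsb and Ctsl. Ctsk, cathepsin K, was the lower gene, from 1.03 ± 0.333 CPM to 0.397 ± 0.212 CPM (-1.33 on the log2 scale, SE 0.43, edgeR adjusted p = 0.0256), and its call was lost without bEnd.3 replicate 3 (edgeR adjusted p = 0.0947), without UV2 replicate 1 (0.0747) and without UV2 replicate 2 (0.0760). The macrophage elastase gene Mmp12 held 6 and 22 counts, and the neutrophil elastase gene Elane held 1 and 0.

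LTBP3 acts on TGF-beta, and the genes of that system were read beside it. Of 13 latent TGF-beta and activating integrin genes 11 were tested, and 6 were higher, 4 were lower and 1 did not pass, with a median log2 fold change of 0.67, where 33.9% of all tested genes were called higher and 33.3% lower. Tgfb2 rose from 8.05 ± 2.32 CPM to 32.7 ± 6.86 CPM (2.03 on the log2 scale, SE 0.24, edgeR adjusted p = 1.88e-04), while Tgfb3 fell from 75.5 ± 9.76 CPM to 19.9 ± 2.29 CPM (-1.92 on the log2 scale, SE 0.12, edgeR adjusted p = 7.13e-06). Thbs1, thrombospondin-1, an activator of latent TGF-beta, rose from 5.30 ± 2.77 CPM to 41.0 ± 17.3 CPM (2.97 on the log2 scale, SE 0.44, edgeR adjusted p = 5.58e-04). Nrros, a cell-surface anchor of latent TGF-beta, fell from 216 ± 14.0 CPM to 94.4 ± 12.5 CPM (-1.19 on the log2 scale, SE 0.10, edgeR adjusted p = 3.89e-05).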

How the data were processed

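Stranded mRNA libraries, 3 of bEnd.3 and 3 of UV2, were grouped by sample title. Per the submitters' processing notes, Trim Galore, STAR and RSEM were used with mm10. Versions, annotation and strand setting are not stated there. Expected counts per gene, not normalized, were deposited by the authors and rounded here. edgeR 4.0.16 (filterByExpr, TMM, quasi-likelihood fit with line as the only term, Benjamini-Hochberg) gave tests for 12720 of 24411 genes, and glmTreat tested changes beyond 2-fold. R was 4.3.3. Exonic lengths came from GENCODE M21, positions and promoters from RefSeq GRCm38.p6.

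Members and lists were chosen with earlier results of these data known. All members were named, and of each other pathway list up to 2 called genes per direction with at least 1 CPM and the largest changes. Of the markers, Pecam1, Cdh5, Pdgfra, Col1a1, Acta2, Myh11, Ptprc and Epcam were always named. Other genes named were chosen after their values were seen.

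Same-numbered libraries of the lines deviated together from their line means (correlations across genes 0.13, 0.23 and 0.28 for numbers 1, 2 and 3). Unlike numbers gave -0.30 to 0.08, the highest for bEnd.3 replicate 1 with UV2 replicate 2, so number 1 hardly stood apart. The number was taken as a possible pairing and fitted as a block in an alternative only. Other alternatives were DESeq2-style size factors, total counts, no filter, at least 1 CPM in 3 libraries, DESeq2 1.42.0, limma-voom (limma 3.58.1) and leaving out each library. No replicate was a copy of another (chi-square of 11.3 or more per degree of freedom). The fit was tested on simulated data.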

Additional observations from a re-analysis of the deposited data

How the results depend on the processing

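In all 13 alternatives, Eln, Fbn1, Fbln2, Fbln5, Ltbp2 and Ltbp3 kept their direction and stayed under an adjusted p of 0.05. The largest adjusted p among them was 0.0266, for Fbn1 in limma-voom. Loxl2 kept its direction in every one and lost its call when any of 4 libraries was left out, as given with its values. With the replicate number as a block, 4380 genes were higher and 4302 lower, and of 50 named genes fitted with the block 49 kept their call and direction, the exception being Tagln. All counts over the whole table and 126 of 130 counts over the lists stayed within 1.5 times. The exceptions were the lower elastase and inhibitor genes, of which there was 1 (Ctsk). There were 0 with at least 1 CPM in 3 libraries, a filter Ctsk does not pass, and 0 to 1 with a library left out. Cdh5, which was not called, turned in sign with total counts (log2 fold change -0.0361) and without bEnd.3 replicate 2 (-7.03e-04), and ranged from there to 0.0862 with a library left out. Timp3, also not called, turned in sign with total counts (-0.0311) and ranged from -0.182 (without bEnd.3 replicate 1) to 0.178 (without bEnd.3 replicate 2) with a library left out. With no filter Efemp2 was tested and called (1.97). Pecam1 was called in DESeq2 (adjusted p = 0.0347). Total counts moved the median of all genes to -0.0758. Depth limits Efemp1, Lox and Efemp2, and the low side of Eln, Fbn1 and Ltbp2, which rest on 36, 21 and 11 counts.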

Other observations

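Genes next to the members were called in both directions. This look at neighbours was chosen after the members' values were seen. The 2 nearest tested genes on each side of each tested member made 28 neighbours. Of these, 11 were called in the direction of the member, 8 were called in the other direction and 9 did not pass, while 67.1% of all tested genes were called. Beyond 2-fold, 4 neighbours were called, beside 19.4% of all tested genes. Shc4, an adaptor protein gene 121 kb from Fbn1, was lower as Fbn1 was (log2 fold change -3.96, edgeR adjusted p = 3.76e-05). Nup210, a nuclear pore gene 94.1 kb from Fbln2, was higher where Fbln2 was lower (log2 fold change 5.04, edgeR adjusted p = 1.90e-06). D030025P21Rik, which overlaps Ltbp2, had 0 counts in bEnd.3 against 3.65 CPM in UV2 (edgeR adjusted p = 1.65e-04). It passed the filter through its UV2 libraries only, and reads from the bases it shares with Ltbp2 cannot be told apart. Slc25a37, a mitochondrial iron carrier gene 323 kb from Loxl2, was higher (log2 fold change 1.36, edgeR adjusted p = 4.82e-05).

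Some genes shared the library in which a member stood apart, by limits chosen after the values were seen. In bEnd.3 replicate 1, 10 of 9030 genes with at least 10 CPM in the line were at or under 30% of the mean of the other two libraries. They were Eln, Fbn1, Col23a1 (a transmembrane collagen), Itga8 (an integrin chain), Vwf, Scg2, Csf2rb, Dner, Fos and Fosb. A limit of 25% was tried first and took in 8 genes. In UV2 replicate 1, 8 of 8970 genes with at least 10 CPM were at least 2 times the mean of the other two. They were Ltbp2, Col3a1, Ctgf (connective tissue growth factor), Ddr2 (a collagen receptor), Fst (follistatin), Selp, Car8 and Ces2g.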
